A study of Mus musculus with 10 samples.

Results

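The genes described here are 8 transcription factors that set and hold the identity of hepatocytes, the main metabolic cells of the liver: Foxa1, Foxa2, Foxa3, Onecut1, Onecut2, Cebpa, Prox1 and Gata4. They were picked by symbol from a list chosen with earlier results of these data known, and all 8 were among the 23420 gene rows counted. RNA-seq measured them in whole liver of 5 starved and 5 fed mice, all male C57BL/6 animals aged 4 months. Starved mice had water but no food for 48 hours, while fed mice had standard chow, in a series on gene regulation through β-hydroxybutyrylation of histone lysines. Each library is labelled as 1 animal's liver, numbered 1 to 5 within its group. The labels speak of 5 pairs of mice, without saying that a shared number marks a pair, and the tests treat the mice as unpaired.

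These factors belong to a network in which many members bind control regions of other members and of many liver genes. The FoxA proteins have a winged-helix domain and can bind closed chromatin, which lets other factors follow. Onecut1 and Onecut2 carry a cut domain and a homeodomain, Cebpa is a basic leucine zipper protein, Prox1 is a homeodomain protein, and Gata4 is a zinc finger protein.

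Reads assigned to genes came to 23.1 ± 4.10 M in starved libraries and 26.5 ± 2.54 M in fed libraries (M stands for 1000000 reads; SD, n = 5 each). Libraries 2 and 4 of the starved group stood apart from the other 3. Pairs that held 1 of them differed by 0.592 to 0.955 (root mean square difference in log2 CPM, the reads of a gene scaled to 1000000 reads per library), against 0.325 to 0.448 in the other starved pairs and 0.318 to 0.409 in fed pairs. Of 12 hepatocyte markers listed, 11 were matched in the count files, and none was at 0 throughout. Their summed level was 128200 to 196460 CPM in starved livers and 105570 to 158020 CPM in fed livers.

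Onecut1, Onecut2, Cebpa and Prox1 fell in starved liver, and the 5 starved libraries lay below the 5 fed libraries for each of these 4 factors. The 3 FoxA genes and Gata4 were not called in either direction. That makes 4 of 8 factors called lower and 0 of 8 called higher, at an adjusted p under 0.05 in edgeR's quasi-likelihood test over 12796 tested genes. Of all tested genes, 38.6% were called, 20.0% lower and 18.6% higher. The share of tested genes with all starved libraries below all fed libraries was 16.7%, and 13.2% had them all above. All 8 factors passed the low-count filter. Their median log2 fold change was -0.39, beside 0.0035 for all tested genes. With starved libraries 2 and 4 left out, 3 of 8 were called lower, with Prox1 lost, beside 20.7% of all tested genes.

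**Figure D1:**
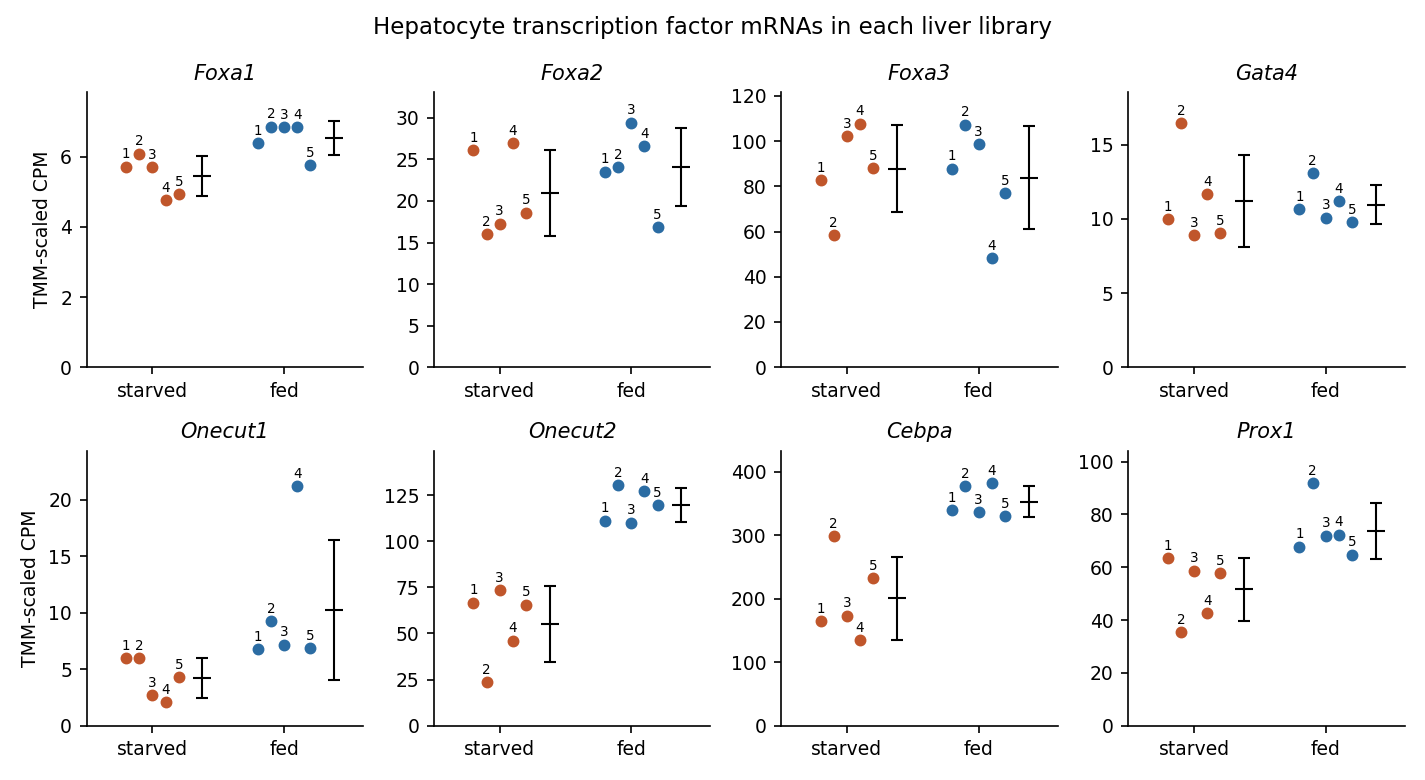
TMM-scaled CPM (vertical axes, from 0) of each factor in the 5 starved (left) and 5 fed (right) libraries, numbered as in the labels, with mean and SD beside each group. The groups separate in the lower row (Onecut1, Onecut2, Cebpa, Prox1) and overlap in the upper row (Foxa1, Foxa2, Foxa3, Gata4).

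To show the control regions beside the values, the promoter windows of 2 factors that fell (Cebpa and Onecut1) and of 2 that were not called (Foxa1 and Foxa3) are printed, from RefSeq on GRCm38.p6. Each runs 5′ to 3′ on the gene's strand, from 250 bases before to 50 bases after the annotated start, and capitals mark motif matches.
Cebpa, chr7:35119043-35119342, plus strand: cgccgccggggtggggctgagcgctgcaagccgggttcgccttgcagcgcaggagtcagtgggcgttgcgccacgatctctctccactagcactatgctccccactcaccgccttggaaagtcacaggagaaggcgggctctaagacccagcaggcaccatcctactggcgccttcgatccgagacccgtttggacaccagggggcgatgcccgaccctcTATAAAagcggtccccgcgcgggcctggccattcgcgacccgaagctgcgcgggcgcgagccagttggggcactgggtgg
Onecut1, chr9:74861671-74861970, plus strand: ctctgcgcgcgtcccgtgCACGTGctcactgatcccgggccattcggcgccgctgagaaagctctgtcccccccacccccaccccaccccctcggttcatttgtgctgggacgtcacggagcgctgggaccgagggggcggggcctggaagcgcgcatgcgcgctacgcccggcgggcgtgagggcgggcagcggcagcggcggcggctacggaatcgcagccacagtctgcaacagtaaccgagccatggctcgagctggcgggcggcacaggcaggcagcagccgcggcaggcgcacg
Foxa1, chr12:57546062-57546361, minus strand: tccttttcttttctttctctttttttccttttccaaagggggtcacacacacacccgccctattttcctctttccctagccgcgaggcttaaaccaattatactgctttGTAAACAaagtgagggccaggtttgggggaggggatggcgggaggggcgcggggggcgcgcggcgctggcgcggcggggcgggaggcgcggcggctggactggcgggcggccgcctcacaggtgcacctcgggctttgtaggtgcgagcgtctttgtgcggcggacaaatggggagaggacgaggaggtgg
Foxa3, chr7:19023490-19023789, minus strand: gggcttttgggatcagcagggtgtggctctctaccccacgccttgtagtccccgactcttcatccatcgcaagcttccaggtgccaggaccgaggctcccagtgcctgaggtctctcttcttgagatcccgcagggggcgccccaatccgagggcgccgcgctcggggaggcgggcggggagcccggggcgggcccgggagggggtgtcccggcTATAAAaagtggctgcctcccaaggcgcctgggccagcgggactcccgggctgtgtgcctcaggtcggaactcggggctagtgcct

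Both strands were searched for TGTTTAC, the forkhead motif. The search also covered TTGCNCAA, the C/EBP motif, and ATCAATA, the Onecut motif. It further covered CACGTG, the E-box bound by clock and MYC family proteins. Last came AGATAA, the motif of the zinc finger factors of Gata4's family, and TATAAA, the core promoter box near many start sites. The C/EBP motif was in none of the windows searched, which covered 6 of the 8 factors. None of the marked matches overlapped another. Cebpa and Foxa3 each held the core promoter box, beginning 30 and 36 bases before the start. A link between these motifs and the fold changes was not tested. Foxa1 held a forkhead match on the opposite strand (read as GTAAACA), beginning 141 bases before the start. Onecut1 held an E-box beginning 232 bases before the start. Of 32851 RefSeq promoter windows of this length, 13.6% held the core promoter box at any position, 3.65% the forkhead motif and 7.15% the E-box. No windows of Onecut2, on chromosome 18, or of Gata4 were searched. The Foxa2 windows held an Onecut match (2.05% of all windows), a match to the Gata4 family motif (11.2%) and the core promoter box, and 1 of the 2 Prox1 windows held that box.

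Onecut2 had the clearest separation of the groups. It measured 66.8, 23.6, 73.6, 46.1 and 65.7 CPM in starved libraries 1 to 5 and 111, 130.3, 110.0, 127 and 119.5 CPM in fed libraries 1 to 5. Every starved liver lay at least 36.5 CPM below the lowest fed liver, and starved library 2 was the lowest of all. The mean was 55.1 ± 20.4 CPM in starved livers and 119.6 ± 9.16 CPM in fed livers (SD, n = 5 each). Onecut2 was 2.17-fold lower in starved liver (log2 fold change -1.12 ± 0.25 SE, adjusted p = 0.00439, edgeR's quasi-likelihood test). Without starved libraries 2 and 4 the log2 fold change was -0.78, and the call held (adjusted p = 5.77e-05, same test). It lies on chromosome 18 (64340020 to 64400987, mm10), with an exon length of 16.2 kb.

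Its paralogue Onecut1, a regulator of liver and bile duct development and of glucose metabolism genes, was scarcer per kilobase of exon. It measured 5.95, 5.99, 2.70, 2.10 and 4.29 CPM in starved libraries and 6.78, 9.25, 7.17, 21.2 and 6.88 CPM in fed libraries. The groups did not overlap, but the gap between the highest starved and the lowest fed library was 0.793 CPM, and fed library 4 was far above the other fed libraries. The mean was 4.21 ± 1.798 CPM in starved livers and 10.25 ± 6.19 CPM in fed livers (SD, n = 5 each). Onecut1 was 2.44-fold lower in starved liver (log2 fold change -1.29 ± 0.39 SE, adjusted p = 0.0209, edgeR's quasi-likelihood test). Without fed library 4 the log2 fold change was -0.84, and without starved library 4 it was -1.09, and in both cases the call was lost (adjusted p = 0.0514 without fed library 4 and 0.0536 without starved library 4, same test). It was kept without starved libraries 2 and 4 together (-1.21, adjusted p = 0.0296, same test). With the replicate number as a block the log2 fold change was -1.20 and was not called (adjusted p = 0.0612, same test). Raw counts of Onecut1 were 55 to 615 reads per library. Its exons on chromosome 9 (74861921 to 74891781) share 2171 bases with the non-coding gene Gm20649 on the same strand. Gm20649 was not among the gene rows counted, so reads from it in these bases may have been counted as Onecut1.

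Cebpa, which drives the metabolic maturation of hepatocytes and restrains their division, had the highest level of the 8 per kilobase of exon. It measured 165, 298, 173, 134 and 232 CPM in starved libraries and 339, 377, 336, 382 and 330.4 CPM in fed libraries. All starved livers lay below all fed livers. They spread over a wider range (SD 32.4% of the mean in starved and 6.90% in fed livers), with starved library 2 the highest of them. The mean was 201 ± 65.0 CPM in starved livers and 353 ± 24.4 CPM in fed livers, a 1.76-fold lower level in starved liver (log2 fold change -0.82 ± 0.19 SE, adjusted p = 0.00612, edgeR's quasi-likelihood test). Leaving out each library in turn gave -0.99 to -0.68, and every one of those 10 fits called Cebpa lower. Cebpa is a gene of a single exon block on chromosome 7 (35119293 to 35121928). It shares 51 bases with the antisense gene Gm45091.

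Prox1, which is needed for hepatoblasts to leave the liver bud and acts as a corepressor of nuclear receptors in adult liver, had the smallest log2 fold change of the 4. It measured 63.5, 35.3, 58.7, 42.6 and 57.8 CPM in starved libraries and 67.9, 91.9, 72.0, 72.4 and 64.8 CPM in fed libraries. The groups came within 1.32 CPM of each other, and starved libraries 2 and 4 were the lowest of the 10. The mean was 51.6 ± 12.01 CPM in starved livers and 73.8 ± 10.6 CPM in fed livers (SD, n = 5 each). Prox1 was 1.43-fold lower in starved liver (log2 fold change -0.52 ± 0.17 SE, adjusted p = 0.0282, edgeR's quasi-likelihood test). The call did not hold in every fit with 1 library left out. It was lost without starved library 4 (-0.43, adjusted p = 0.0768), fed library 2 (-0.43, adjusted p = 0.0732) or fed library 4 (-0.52, adjusted p = 0.0518), by the same test. Without starved libraries 2 and 4 together the log2 fold change was -0.28 (adjusted p = 0.0634, same test). With the replicate number as a block it was -0.54 and was not called (adjusted p = 0.0647, same test). Prox1 (chromosome 1, 190118035 to 190170714) shares 133 exon bases with the antisense gene Prox1os.

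The FoxA genes gave smaller fold changes, with overlapping groups. Foxa1 lies on chromosome 12 (57540628 to 57546916, mm10), Foxa2 on chromosome 2 (148042877 to 148046969) and Foxa3 on chromosome 7 (19013284 to 19023538), all on the minus strand. Foxa3, the most abundant of them in adult liver, measured 82.7, 58.4, 102, 108 and 88.1 CPM in starved libraries and 87.8, 107, 98.7, 48.3 and 77.1 CPM in fed libraries. The fed range covered nearly all of the starved range, and fed library 4 was the lowest of the 10 (log2 fold change 0.068, 95% interval -0.40 to 0.53; adjusted p = 0.823, edgeR's quasi-likelihood test). The sign turned to -0.079 without fed library 4 and to -0.073 with library totals alone.

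Foxa2, a regulator of bile acid and lipid genes in adult liver, measured 26.1, 16.0, 17.3, 27.0 and 18.6 CPM in starved libraries and 23.5, 24.1, 29.4, 26.6 and 16.8 CPM in fed libraries. Both groups held low and high livers, and the log2 fold change was -0.20 (95% interval -0.60 to 0.21; adjusted p = 0.419, edgeR's quasi-likelihood test). Foxa1, which acts together with Foxa2 in starting liver development, measured 5.72, 6.09, 5.70, 4.77 and 4.93 CPM in starved libraries and 6.39, 6.86, 6.84, 6.85 and 5.76 CPM in fed libraries. Only fed library 5 lay within the starved range. Foxa1 was not called (log2 fold change -0.27, 95% interval -0.53 to 0.00095; adjusted p = 0.104, edgeR's quasi-likelihood test). It was called with library totals alone as scaling (-0.43, adjusted p = 0.0154, same test), a setting that shifted the median of all genes by -0.15 on the log2 scale and left 29.9% of all calls higher in place of 48.2%.

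Gata4, a factor of the liver bud that in adult liver is also made by sinusoidal endothelial and stellate cells, measured 9.999, 16.5, 8.90, 11.7 and 9.04 CPM in starved libraries and 10.7, 13.1, 10.1, 11.2 and 9.78 CPM in fed libraries. It lies on chromosome 14 (63198922 to 63271692, mm10, minus strand). Starved library 2 was the highest and the other starved livers lay between 8.90 and 11.7 CPM, around the lower part of the fed range. The log2 fold change was 0.031 (95% interval -0.35 to 0.41; adjusted p = 0.903, edgeR's quasi-likelihood test). Its sign turned negative with some scalings and without starved library 2 (-0.13) or fed library 5 (-0.0096). Without starved libraries 2 and 4 it was -0.21 (adjusted p = 0.161, same test).

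**Figure D2:**
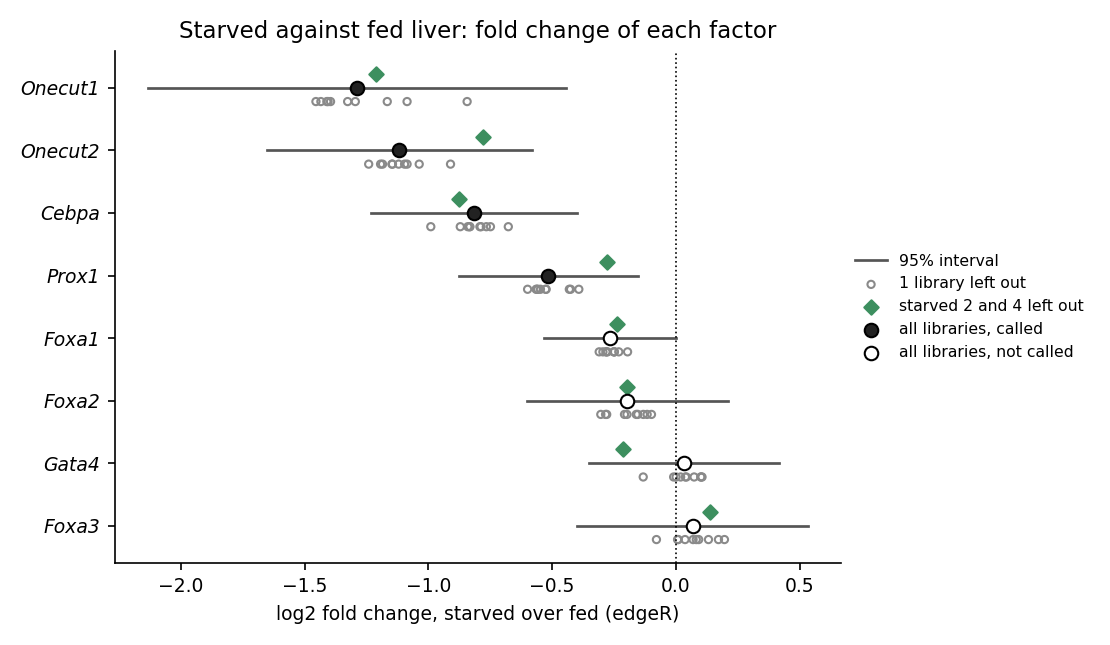
Log2 fold change of starved over fed liver (horizontal axis, edgeR) for each factor with all libraries (large circles, filled where called), its 95% interval (lines), each of 10 fits with 1 library left out (small circles) and the fit without starved libraries 2 and 4 (diamonds). Onecut1, Onecut2, Cebpa and Prox1 lie left of 0 in all of these fits, and the interval of Foxa1 ends at 0.00095.

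The levels of different genes were compared per kilobase of exon. Cebpa stood first in both groups, at 76.1 ± 24.7 CPM per kb in starved and 134 ± 9.24 CPM per kb in fed livers (SD, n = 5 each), and Foxa3 second, at 43.1 ± 9.49 CPM per kb in starved and 41.2 ± 11.2 CPM per kb in fed livers. In starved livers the ranges of these neighbours overlapped, and the ratio of their means was 1.76. In fed livers the ranges did not overlap, and the ratio was 3.25. Foxa2, Prox1 and Onecut2 followed, with 8.86, 6.15 and 3.40 CPM per kb in starved and 10.2, 8.79 and 7.37 CPM per kb in fed livers, and each pair of neighbours among them had overlapping ranges. Gata4 came next at 2.87 CPM per kb in starved and 2.81 CPM per kb in fed livers. Onecut1 was last in starved livers at 1.02 CPM per kb, with Foxa1 above it at 1.64. In fed livers Foxa1 was last at 1.97 CPM per kb, with Onecut1 above it at 2.49. The ranges of these 2 genes overlapped in each group. Of all tested genes with a length, 53.9% lay below Onecut2 in starved livers and 71.8% in fed livers, and 29.4% lay below Onecut1 in starved livers and 47.3% in fed livers.

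**Figure D3:**
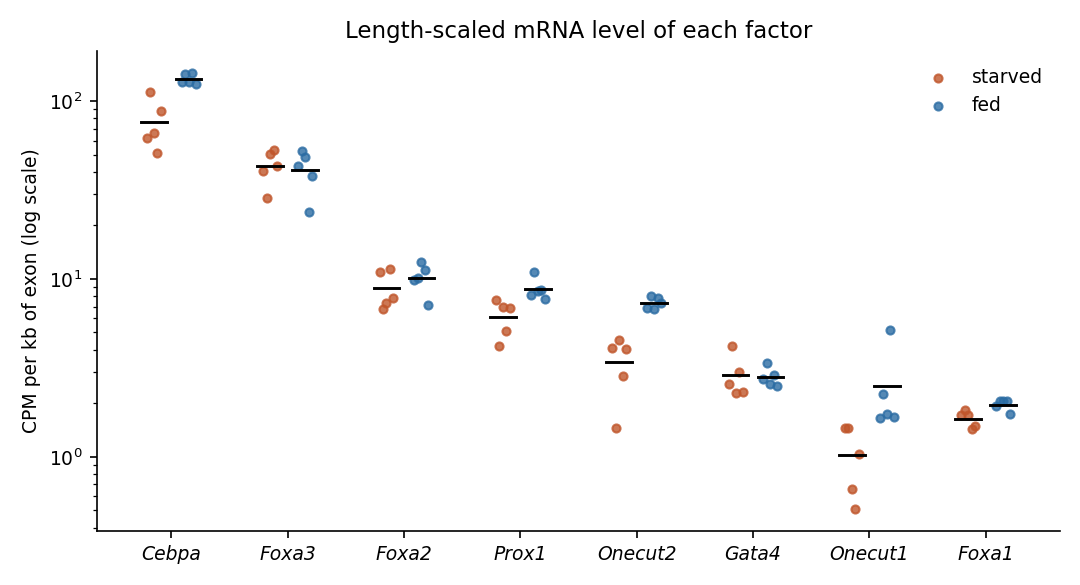
CPM per kilobase of exon (vertical axis, log scale) of each factor, with starved libraries left of fed libraries and a line at each group's mean. Cebpa and Foxa3 lie above 20 CPM per kb in every library and the other 6 factors below 13.

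Within the FoxA family, Foxa3 made up 80.1 ± 3.62% of length-scaled reads in starved and 76.4 ± 7.07% in fed livers, while Foxa2 made up 16.7 ± 3.18% in starved and 19.8 ± 6.16% in fed livers (SD, n = 5 each). Foxa1 gave the rest, 3.21 ± 1.03% in starved and 3.84 ± 0.985% in fed livers. Each of these 3 differences was smaller than the SD of the fed group. In the Onecut pair, Onecut2 made up 75.1 ± 14.95% in starved and 76.0 ± 8.85% in fed livers. Starved library 2, with near-equal shares of both genes, and fed library 4 (60.3% Onecut2) stood out, and the other starved livers held 74.0% to 87.3% Onecut2.

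Starved library 2 was at an end of the starved range for all 8 factors. It was the lowest for Onecut2, Prox1, Foxa2 and Foxa3 and the highest for Cebpa, Gata4, Foxa1 and Onecut1. No other library was at an end of its group for more than 5 of the 8. Fed library 4 combined the highest Onecut1 with the lowest Foxa3.

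Some of these factors are also made by other cells of the liver: Onecut1 and the FoxA genes by bile duct cells, Prox1 by lymphatic endothelium, and Gata4 as above. In whole liver, fewer cells of a type and less RNA per cell cannot be told apart. The marker counts below stand beside 18.6% of all tested genes called higher and 20.0% called lower. Of 6 bile duct markers tested 1 was called lower, and the summed list was 19.0 to 43.5 CPM in starved and 48.8 to 61.2 CPM in fed livers, mostly Spp1 (24.2 ± 11.1 CPM in starved and 47.2 ± 5.06 CPM in fed livers). The sum was lowest in starved libraries 2 and 4 (19.8 and 19.0 CPM). Of the 10 bile duct markers listed, those not tested, Cftr, Cldn7 and Muc1 among them, were too low, and none was at 0 in all libraries. Of 12 sinusoidal and vascular endothelial markers 6 were lower and 1 higher, with summed levels of 290 to 364 CPM in starved and 367 to 424 CPM in fed livers, Clec4g (49.8 ± 9.63 and 74.1 ± 9.38 CPM) and Stab2 (45.9 ± 7.49 and 61.1 ± 5.33 CPM) being the most abundant. Stab2 lost its call without starved library 4 (-0.38).

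Lymphatic endothelial markers summed to 103 to 191 CPM in starved and 128 to 159 CPM in fed livers, with 1 of 4 higher and Ccl21a at 0 in every library. Most of that sum came from Reln (78.6 ± 17.8 CPM in starved and 102 ± 11.3 CPM in fed livers) and Lyve1 (31.8 ± 12.02 and 9.54 ± 1.01 CPM), which other liver cells also make. Of 11 stellate and fibroblast markers 2 were higher and 4 lower (462 to 672 and 479 to 552 CPM), with Dcn (370 ± 71.0 and 263 ± 7.57 CPM) leading. Kupffer cell and macrophage markers were lower for 10 of 11 (223 to 429 CPM in starved and 503 to 805 CPM in fed livers; Clec4f 82.9 ± 17.6 and 152 ± 21.3 CPM, Cd5l 51.1 ± 25.4 and 125 ± 25.9 CPM), and their sum was highest in fed library 4. Neutrophil markers, led by S100a9 (5.47 ± 3.20 and 1.34 ± 0.516 CPM) and S100a8 (4.62 ± 3.04 and 1.20 ± 0.395 CPM), were higher for 4 of 5 (4.58 to 30.0 CPM in starved and 3.65 to 5.84 CPM in fed livers), and lymphocyte markers lower for 1 of 5 (1.18 to 4.87 and 4.52 to 6.36 CPM; Cd79b 0.879 ± 0.416 and 1.54 ± 0.358 CPM, Ms4a1 0.481 ± 0.434 and 1.06 ± 0.426 CPM). Without starved libraries 2 and 4, 6 stellate markers were lower and 1 higher, 2 lymphatic markers and 0 lymphocyte markers were lower, and 1 bile duct marker was higher. Among all tested genes 20.2% were then higher and 20.7% lower. Of 10 hepatocyte markers tested 2 were higher and 3 lower. Alb and Ahsg, the most abundant, were not called. The part of these cells in the values of the 8 factors was not tested.

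Of 19 other factors of the hepatocyte network, 6 were higher and 5 lower in starved liver, with a median log2 fold change of 0.10. Among all tested genes 18.6% were higher and 20.0% lower. The largest rises were in Cebpd and Cebpb, relatives of Cebpa that respond to stress and hormones, and in Gata6, a relative of Gata4. Cebpd averaged 21.6 ± 9.93 CPM in starved and 3.66 ± 1.37 CPM in fed livers (log2 fold change 2.56 ± 0.35 SE, adjusted p = 0.000345, edgeR's quasi-likelihood test). Cebpb averaged 80.6 ± 41.5 CPM in starved and 38.8 ± 14.3 CPM in fed livers (1.05 ± 0.36 SE, adjusted p = 0.0380, same test). Cebpd and Cebpb were thus higher in starved liver where Cebpa was lower. Gata6 averaged 11.5 ± 7.99 CPM in starved and 5.46 ± 0.902 CPM in fed livers (1.07 ± 0.36 SE, adjusted p = 0.0347, same test).

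The calls of Cebpb and Gata6 did not hold in every fit with 1 library left out. Cebpb was called in 10 of 21 alternatives and lost its call without starved library 2 (0.77), 4 (1.07) or 5 (0.98), without fed library 1 (0.93), 2 (0.93), 3 (1.04) or 4 (1.15). Leaving out starved libraries 2 and 4 together gave 0.65, also not called. Gata6 was called in 11 of 21 and lost its call without starved library 4 (1.14), without fed library 1 (1.06), 2 (1.08), 4 (1.07) or 5 (0.99), and with the replicate number as a block (0.87). Without starved library 2 alone the log2 fold change of Gata6 was 0.57, still called. Leaving out starved libraries 2 and 4 together gave 0.42, also not called. Tbx3, a regulator of hepatocyte fate (-1.11 ± 0.19 SE), Nfib, a nuclear factor I protein (-0.84 ± 0.12 SE), and Nr5a2, a nuclear receptor of bile acid synthesis (-0.60 ± 0.15 SE), fell, and Nr5a2 fell by 0.40 on the log2 scale without starved libraries 2 and 4. Without those libraries 3 of the 19 were higher and 6 lower, beside 20.2% and 20.7% of all tested genes.

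Of 15 proteins known to bind or regulate these factors, 3 were higher and 1 lower, with a median of 0.36. The shares of all tested genes were 18.6% higher and 20.0% lower. Ppargc1a, a coactivator of fasting genes (2.18 ± 0.16 SE), Trib3, a pseudokinase (2.07 ± 0.32 SE), and Crtc2, a coactivator of CREB (0.88 ± 0.25 SE, 0.55 without starved library 2 and 0.42 without starved libraries 2 and 4), rose. Zfpm1, a cofactor of GATA proteins, fell to 12.7 ± 1.72 CPM in starved livers, against 22.6 ± 3.76 CPM in fed livers (-0.83 ± 0.14 SE, adjusted p = 0.001, edgeR's quasi-likelihood test).

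Of 24 tested genes known as targets of the 8 factors in liver, 12 were higher and 3 lower, with a median of 0.56, and the counts were the same without starved libraries 2 and 4. Among all tested genes 18.6% were higher and 20.0% lower, and 20.2% and 20.7% without those libraries. Igfbp1, a secreted binder of insulin-like growth factors with a forkhead site in its promoter (7.10 ± 1.16 SE, and 4.55 without those libraries), Cyp8b1, the sterol hydroxylase that sets the kind of bile acid made (2.46 ± 0.26 SE), and Tat, the tyrosine aminotransferase (2.38 ± 0.41 SE), rose the most. Ttr, the transthyretin gene (-0.88 ± 0.22 SE), and Slc2a2, the glucose transporter of hepatocytes (-0.85 ± 0.27 SE), fell. Without starved libraries 2 and 4 their log2 fold changes were -0.60 for Ttr and -0.52 for Slc2a2. The Slc2a2 call was lost without fed library 2 (-0.75), 4 (-0.77) or 5 (-0.84). With the replicate number as a block Slc2a2 was at -0.89 and not called.

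**Figure D4:**
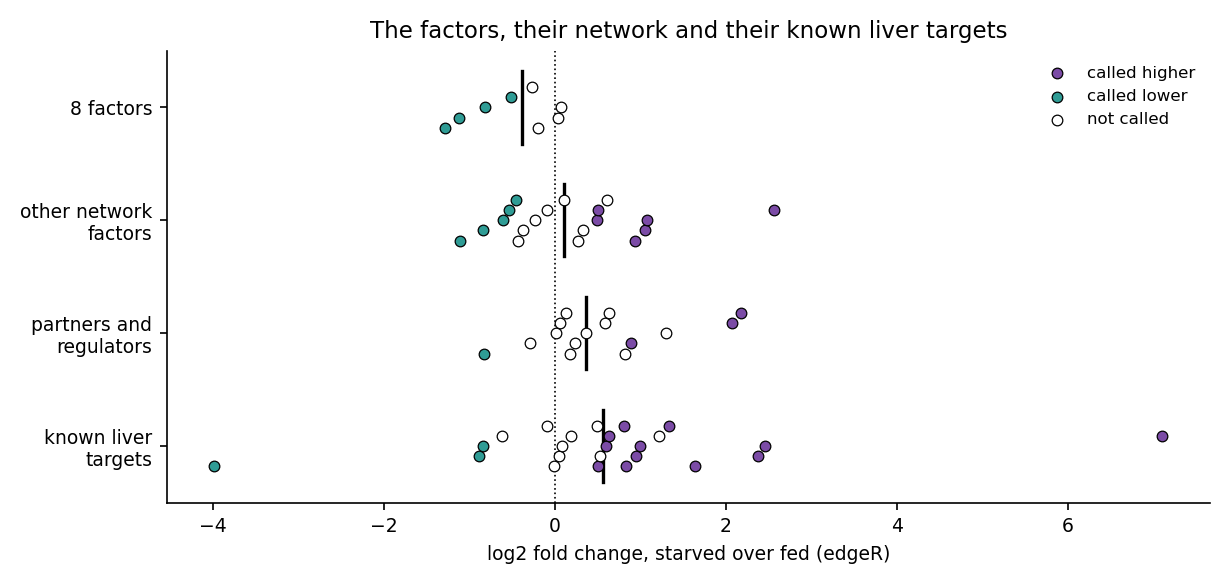
Log2 fold change of starved over fed liver (horizontal axis, edgeR) for the 8 factors, 19 other network factors, 15 partners and regulators and 24 known targets, each point a tested gene coloured by its call and each vertical line a group's median. The medians are -0.39, 0.10, 0.36 and 0.56 from top to bottom.

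The genes whose profile over the 10 libraries was most like that of each factor were found by the root mean square difference of mean-centred log2 CPM (prior count 2), given here as a description. For Onecut2 they were Pip4k2b, a phosphoinositide kinase (0.120), and Cat, the catalase gene (0.126), against a median of 0.782 over all other tested genes. For Prox1 they were Amacr, a racemase of branched fatty acid and bile acid breakdown (0.0615), and Prkaca, a catalytic subunit of protein kinase A (0.0862), against 0.484. For Cebpa they were Bcar1 (0.145) and Angptl2 (0.146), against 0.619. For Onecut1 they were Ccdc57 (0.328) and the macrophage gene Emr1 (0.364), against 0.918. Like Onecut1, Emr1 was highest among fed libraries in library 4 (68.4 CPM). For the factors that were not called, the neighbours were Cdc42se1 (0.05004) and Ppt1 (0.0691) for Foxa1, Dzip3 (0.185) and Toe1 (0.193) for Foxa2, Erbb2 (0.152) and Isg20 (0.214) for Foxa3, and Rmnd5b (0.0518) and Hif1a (0.0714) for Gata4. Factors that vary little lie near many genes, so these distances are not comparable between factors.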

How the data were processed

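Whole-liver RNA was sequenced from 5 starved and 5 fed mice with a strand-marking TruSeq total RNA kit, per the labels' protocols. The deposited files hold raw read counts per gene symbol, not normalised. Tools named in the submitters' processing notes are edgeR 3.6.4, HTSeq, Bowtie2 2.0.0, TopHat2 2.0.0 and CASAVA 1.8.2, with build mm10. The annotation and strand setting are, in the sources used here, not given, so antisense overlaps are uncertain. The 5 tally rows of unassigned reads stayed out of library sizes. Reads aligned to several places made up 42.9% ± 3.68 of starved and 47.1% ± 0.780 of fed tallies (SD, n = 5 each), and reads in no gene 20.1% ± 2.99 and 18.1% ± 2.46. Multiply aligned reads are tallied apart from genes, which lowers genes with close copies.

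Counts were analysed in R 4.3.3. Genes passing edgeR 4.0.16's filterByExpr (12796 of 23420) were scaled with TMM factors (trimmed mean of M values) and tested with its quasi-likelihood test, starved against fed. P-values were Benjamini-Hochberg adjusted across these genes, and genes were called under 0.05. "Rose" and "fell" mark called genes. Levels are TMM-scaled CPM, and lengths and coordinates come from GENCODE's annotation of the same build (98.1% of rows matched). The fit was checked on simulated data. There it called 13.4% of 67 genes changed 1.5-fold, 52.2% of 67 changed 2-fold and 97% of 66 changed 4-fold, and 11 of 12596 unchanged genes. Far fewer genes changed there than the 38.6% called in these data, which makes the adjustment of p-values stricter. Simulated libraries of a group shared 1 mean per gene, so none stood apart as starved libraries 2 and 4 do. The shares called there therefore do not carry over to these data. Changes of 2-fold or less can still go uncalled. Nothing in the labels gives a batch, and p-values set the difference between starved and fed livers against the spread between these animals. Alternatives were other scalings, tests (DESeq2 1.42.0, edgeR's likelihood ratio test, limma-voom 3.58.1) and filters, a replicate block, a threshold of 0.01 and leaving out each library. Leaving out starved libraries 2 and 4 together and using the longest coding transcript as length were chosen after seeing the data.

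The factors and lists were chosen with earlier results of these data known. Named are all 8 factors, in each functional list up to 3 called genes per direction with at least 1 CPM, in each marker list the 2 most abundant, and the 2 nearest profiles per factor, leaving out gene models named only by a number. A few list genes that this rule would name are not reported here.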

Additional observations from a re-analysis of the deposited data

Results flagged for a closer look

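In fed library 4 Onecut1 measured 21.2 CPM, far from the other 4 fed libraries (6.78 to 9.25 CPM). The gap to the nearest of them was 0.728 of the group's whole range on the log2 scale, above Dixon's critical value of 0.71 for 5 samples. This was 1 of 16 groups examined, and chance flags about 1 in 20. In the same library Foxa3 was the lowest of the fed group at 48.3 CPM and the summed Kupffer cell and macrophage markers were the highest at 805 CPM, against 503 to 696 CPM in the other fed libraries. Without fed library 4 the log2 fold change of Onecut1 was -0.84 in place of -1.29. The part of that library's composition in this value was not tested.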

How the results depend on the processing

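Onecut2 and Cebpa kept their direction and call in all 21 alternatives run for each (-1.25 to -0.78 and -0.99 to -0.68 on the log2 scale), and Foxa2 was called in none. With library totals alone Foxa1 was called (-0.43), Foxa3 and Gata4 changed sign (-0.073 and -0.14), and 1490 genes were called higher. Gata4 also changed sign with upper-quartile factors (-0.0022), limma-voom (-0.0031) and without starved libraries 2 and 4 (-0.21), as did the marker Ahsg in the last (-0.091). With a replicate block Onecut1 (-1.20) and Prox1 (-0.54) lost their calls, leaving 2 factors called lower, beside 18.6% of all tested genes. The labels speak of 5 pairs of mice but do not tie the numbers to pairs. Same-numbered starved and fed libraries correlated at -0.0453 to 0.198 in their deviations from the group means. Of 5 starved libraries, 2 matched their own number best. With 5 libraries per group, these values cannot show whether the numbers mark pairs. At an adjusted p under 0.01, Onecut1 (-1.29) and Prox1 (-0.52) were not called, and 2 factors remained lower. At that threshold 1272 genes were higher and 1526 lower, the latter 11.9% of all tested genes. Prox1 was not called without starved libraries 2 and 4 (-0.28).

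Leaving out each library in turn gave -1.45 to -0.84 for Onecut1, -0.60 to -0.39 for Prox1, -0.079 to 0.20 for Foxa3 and -0.13 to 0.11 for Gata4. In those fits 2 to 4 factors were called lower, beside 15.9% to 22% of all tested genes. The cause of these changes was not tested, apart from the fewer samples or the stricter threshold that the alternatives impose. With the longest coding transcript as length, the order of levels per kilobase was the same and Gata4 in fed livers moved beyond its spread, to 3.23 CPM per kb. The fewest reads behind a factor were 55 to 615 per library for Onecut1 and 85 to 207 for Foxa1.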
